A study of Mus musculus with 3 samples.

Results

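Atf4, Atf5, Ddit3, Ppp1r15a, Ppp1r15b and Ifrd1 are stress-response genes whose mRNAs carry regulatory upstream open reading frames (uORFs), short reading frames in the 5′ UTR that ribosomes meet before the main coding sequence (CDS). The members were taken by gene symbol, after transcript identifiers were joined to gene symbols, and all 6 were found among the 20823 genes whose annotation has both UTRs and a CDS. Each gene was represented by its longest transcript. Ribosome footprints, pieces of mRNA shielded from nuclease by the ribosome, were sequenced from primary cortical neurons of mouse grown in Neurobasal with B27 and Glutamax, per the study's methods from CD-1 embryos. There was 1 library per treatment, each pooled from 3 dishes. The WT dishes were left untreated, the Chx dishes were given 2 min of cycloheximide, which arrests elongating ribosomes, and the Harr dishes were given 2 min of harringtonine before a cycloheximide pulse. Harringtonine holds ribosomes that have just begun on a start codon while those already elongating run on. The buffers used for rinsing and lysis held cycloheximide at 100 μg per ml for all 3 libraries, so WT was not free of the drug after harvest. No dish was stressed on purpose, and no RNA-seq library was used, so mRNA amount and ribosome density per mRNA cannot be told apart.

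When stress kinases phosphorylate the α subunit of eIF2, the factor that brings the initiator tRNA to the ribosome, most translation slows, while mRNAs with certain uORFs pass ribosomes on to their main CDS. ATF4 and ATF5 are related bZIP transcription factors that drive amino acid and stress genes. DDIT3 (CHOP) is a bZIP factor of the endoplasmic reticulum stress response. PPP1R15A (GADD34), which stress induces, and PPP1R15B (CReP), which is made all the time, direct protein phosphatase 1 to eIF2 and reverse the phosphorylation. IFRD1 is a transcriptional co-regulator whose mRNA is known for a uORF linked to its decay.

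The uORFs were read from the GENCODE transcript sequences, and each start site is shown because the position of the reads is described relative to it. Positions count from 1 at the first base of the transcript, genome positions are on mm10, and codons are counted without the stop. Each line gives 5′ to 3′ the 12 bases before a start codon, the start codon in capitals and the 15 bases after it.
Atf4 uORF of 3 codons, chromosome 15, start codon at transcript position 399: cttgcggccaccATGgcgtattagaggcag
Atf4 uORF of 59 codons, start codon at position 498: ccggcctaagccATGgcgctcttcacgaaa
Atf4 CDS, start codon at position 595: aagccccacaacATGaccgagatgagcttc
Atf5 uORF of 3 codons, chromosome 7, start codon at position 122: tccgcccgcgcaATGgctctgtagccgcga
Atf5 uORF of 58 codons, start codon at position 253: cttttcgccgccATGgagtcctccaccttc
Atf5 CDS, start codon at position 374: tgtgtcacagccATGtcactcctggcgacc
Ddit3 uORF of 34 codons, chromosome 10, start codon at position 56: gtcgattatatcATGttgaagatgagcggg
Ddit3 CDS, start codon at position 187: ccacgtgcagtcATGgcagctgagtccctg
Ppp1r15a uORF of 26 codons, chromosome 7, start codon at position 180 of the spliced transcript: cctgagggcgacATGaacccgctggcttcg
Ppp1r15b uORF of 51 codons, chromosome 1, start codon at position 375: tccctagccgggATGgacctaaccgcggtc
Ifrd1 uORF of 52 codons, chromosome 12, start codon at position 32: ctagagagaaacATGtatcgtttccgctcg

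All 6 members had at least 1 ATG in the 5′ UTR, as did 55.4% of 20663 longest transcripts. In Atf4 and Atf5 a 3-codon uORF came before a longer one that was out of frame with the CDS and ended inside it, by 83 bases in Atf4 and by 56 bases in Atf5. Atf4 also had a uORF of 36 codons at position 120. The long uORFs of both genes began in exon 1 with 5 bases of that exon left, at position 498 of an exon that ended at 502 in Atf4 and at position 253 of an exon that ended at 257 in Atf5. Over all longest transcripts, 0.216% of 44969 uORF start codons had that spacing, a feature that was picked out after the sequences were seen. The start codons of both Atf4 uORFs and of both Atf5 uORFs in the list had a purine 3 bases before the ATG and a G directly after it, a pattern found at 15.0% of all uORF starts and at 40.9% of CDS starts. The start codons of the Atf4 and Atf5 CDSs themselves had the purine without the G. The Ddit3 uORF had a second ATG in the same frame at position 65 and ended at position 160, before the CDS.

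For Ppp1r15a the longest transcript kept the first intron of 603 bases in its 5′ UTR and so had 7 ATGs there, 1 of which opened a uORF that ended in the CDS. The spliced transcript had 3 uORFs, of 45, 34 and 26 codons, and none reached the CDS. Ppp1r15b had uORFs of 2, 8 and 51 codons and Ifrd1 had 1 of 52 codons, all of which ended before the CDS. An out-of-frame uORF that ended inside the CDS was present in 3 of the 6 longest transcripts and in 18.4% of all longest transcripts. None of the 25-base words in the 5′ UTRs and CDSs of the members occurred in a transcript under another gene symbol. The Ddit3 uORF is also annotated as the CDS of a transcript with the same symbol and a separate gene identifier, which covers the same bases. Genes on the opposite strand overlap the 5′ UTRs of Atf5 (Nup62 and Il4i1), Ddit3 (Gm4189), Ppp1r15b (Gm26616) and Ifrd1 (Gm7008), and the last pair overlap the CDSs of Ppp1r15b and Ifrd1 as well. Whether counting used strand is not stated, and then reads of such a pair cannot be told apart.

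Reads were counted at their 5′ ends, which places a ribosome paused on the start codon in the 5′ UTR just before it. A 5′ UTR count therefore held both uORF footprints and footprints of ribosomes on the main start codon. Aligned reads numbered 30219197 for WT, 35722483 for Chx and 9754412 for Harr, so that 1 read was worth 0.0331, 0.0280 and 0.103 reads per 1000000. The summed level of 6 neuron markers lay between 3814 and 4146 reads per 1000000 in the 3 libraries, that of 4 astrocyte markers between 78.8 and 213, with the low value in Harr, and that of 4 microglia markers between 1.44 and 2.80. Of 4 oligodendrocyte markers, summed at 2.15 to 6.52, Mog and Mobp had no read in any library. The part of the glial markers in the results below was not tested. With 1 library per treatment there was no replicate, so no difference has a p-value, and every interval covers counting error only.

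All 6 mRNAs carried a large part of their footprints in the 5′ UTR in each library. The 5′ UTR share is the percentage of 5′ UTR plus CDS reads that lay in the 5′ UTR. Its median over the members was 47.9% in WT, 44.0% in Chx and 73.0% in Harr, and over all genes with at least 10 reads in both regions it was 7.61%, 10.7% and 39.9%. In WT and in Chx all 6 members lay above the 90th percentile of genes, which was a share of 29.4% in WT and 33.3% in Chx. In Harr 3 members lay above that percentile, a share of 74.1%.

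**Figure D1:**
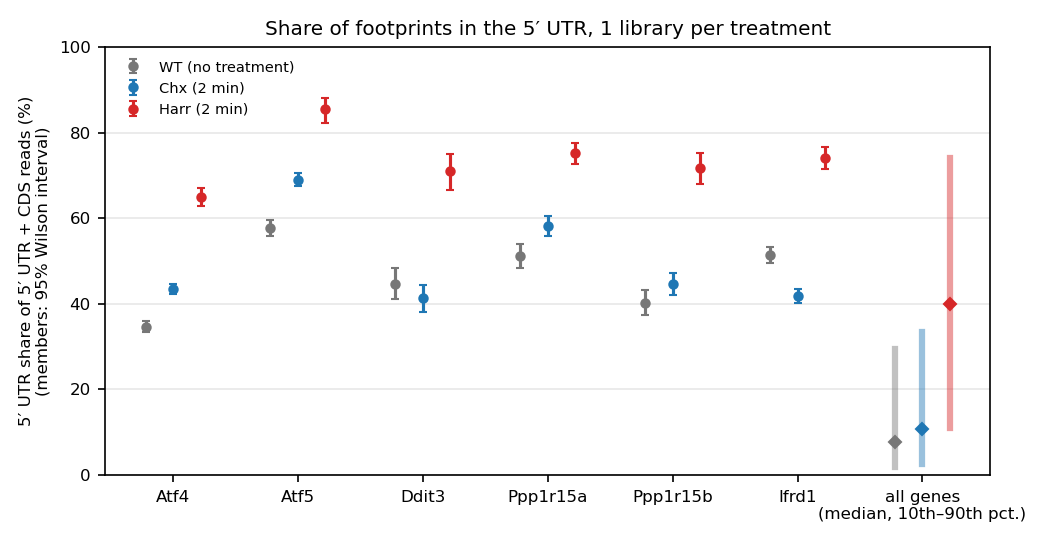
The vertical axis is the percentage of 5′ UTR plus CDS reads in the 5′ UTR, the circles are the 6 members with Wilson 95% intervals, and the diamonds and bars at the right are the median and the 10th to 90th percentile of all genes in the same library. Each member has its highest share in Harr, and Ifrd1 is the member whose Chx share (41.8%) lies furthest below its WT share (51.5%).

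Atf4, at chromosome 15 from 80255184 to 80257541 on the forward strand, had 1901 5′ UTR reads and 3578 CDS reads in WT, 3321 and 4323 in Chx, and 1217 and 656 in Harr. Its 5′ UTR share was 34.7% in WT (Wilson 95% interval 33.4 to 36.0), 43.4% in Chx (42.3 to 44.6) and 65.0% in Harr (62.8 to 67.1). The 3 intervals did not overlap, and Atf4 had the lowest share of the members in WT and in Harr. Its ratio of 5′ UTR to CDS reads was higher than that of 92.8% of genes in WT, 94.9% in Chx and 81.1% in Harr.

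Atf5, at chromosome 7 from 44812256 to 44816658 on the reverse strand, had 1626 5′ UTR and 1192 CDS reads in WT, 2419 and 1086 in Chx, and 471 and 80 in Harr. The share was 57.7% in WT (55.9 to 59.5), 69.0% in Chx (67.5 to 70.5) and 85.5% in Harr (82.3 to 88.2), the highest of the members in every library. Its ratio was above that of 98.5%, 99.3% and 97.4% of genes.

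Ddit3, at chromosome 10 from 127290774 to 127296288 on the forward strand, had 316 5′ UTR and 391 CDS reads in WT, 392 and 558 in Chx, and 316 and 129 in Harr. The share was 44.7% in WT (41.1 to 48.4), 41.3% in Chx (38.2 to 44.4) and 71.0% in Harr (66.6 to 75.0). The WT and Chx intervals overlapped, and Harr stood apart from both.

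Ppp1r15a, at chromosome 7 from 45522922 to 45526146 on the reverse strand, had 611 5′ UTR and 584 CDS reads in WT, 952 and 684 in Chx, and 867 and 285 in Harr. Its share was 51.1% in WT (48.3 to 54.0), 58.2% in Chx (55.8 to 60.6) and 75.3% in Harr (72.7 to 77.7). On the spliced transcript, whose 5′ UTR of 283 bases held more reads (712, 1173 and 1018 in WT, Chx and Harr), it was 54.9%, 63.2% and 78.1%.

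Ppp1r15b, at chromosome 1 from 133131143 to 133139783 on the forward strand, had 441 5′ UTR and 656 CDS reads in WT, 665 and 827 in Chx, and 421 and 166 in Harr. The share was 40.2% in WT (37.3 to 43.1), 44.6% in Chx (42.1 to 47.1) and 71.7% in Harr (67.9 to 75.2). The order of the libraries was that of Ppp1r15a, although the WT and Chx intervals of Ppp1r15b overlapped.

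Ifrd1, at chromosome 12 from 40201567 to 40223189 on the reverse strand, had 1398 5′ UTR and 1316 CDS reads in WT, 1322 and 1840 in Chx, and 770 and 268 in Harr. The share was 51.5% in WT (49.6 to 53.4), 41.8% in Chx (40.1 to 43.5) and 74.2% in Harr (71.4 to 76.8). Ifrd1 and Ddit3 were the members with a lower share in Chx than in WT, and only for Ifrd1 did the intervals of those libraries not overlap.

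Per base, the 5′ UTRs were denser than the CDSs for every member and library but Atf4 in WT. The ratio of reads per base in the 5′ UTR to reads per base in the CDS had a median over the members of 2.52 in WT, 3.19 in Chx and 8.33 in Harr, against 0.511, 0.795 and 4.37 over all genes. On the longest transcripts, Ifrd1 had the highest ratio in WT (6.16) and in Harr (16.6), and Atf5 in Chx (5.09). Atf4 had the lowest ratio in each library (0.939, 1.36 and 3.28), and in Harr only 38.0% of genes had a lower one. The longest Ppp1r15a 5′ UTR, 764 bases, kept an intron of 603 bases. It held 0.800 reads per base in WT, 1.25 in Chx and 1.13 in Harr. Exon 1 of the spliced transcript, 274 bases of its 283-base 5′ UTR, held 2.60, 4.27 and 3.72. With the same CDS, the Ppp1r15a ratio was therefore higher on the spliced transcript. The order and medians of the members were not computed with it.

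**Figure D2:**
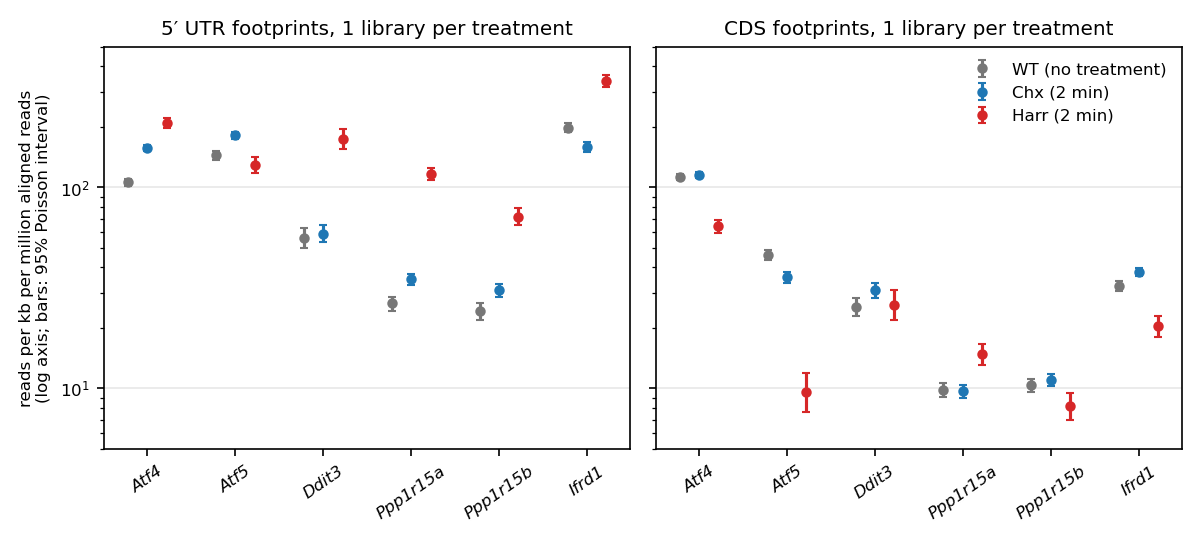
Reads per kilobase per 1000000 aligned reads (RPKM) are plotted on a log axis for the 5′ UTR (left) and the CDS (right) of each member, with exact Poisson 95% intervals and 1 point per library. The Harr point is the highest of the 3 in the 5′ UTR of every member but Atf5, where it is the lowest (129 against 182 in Chx and 144 in WT).

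How far harringtonine changed the division of reads between 5′ UTR and CDS was measured as a log2 odds ratio, the 5′ UTR:CDS read ratio of one library over that of another after 0.5 was added to each count. All 6 members were at least 2-fold higher in Harr than in Chx, as were 92.1% of 10722 genes, and all 6 were at least 2-fold higher in Harr than in WT, as were 96% of 10313 genes, so these counts do not set the members apart. With the first CDS piece left out of the CDS count, an alternative added after the data were seen, 3 of the 6 were 2-fold higher in each comparison, where 91.1% and 95.4% of genes were. Atf5 (-0.02 against Chx and -0.18 against WT), Ppp1r15b (0.22 and 0.97) and Atf4 (0.60 and 0.94) were then no longer so. For Ppp1r15b that left only the last 225 bases of the CDS, with 33 reads in Harr. With only upstream 5′ UTR pieces, which 3 members have, Ddit3 stood at 0.97 ± 0.20 against WT and was no longer 2-fold higher. No member was 2-fold lower (0.289% and 0.262% of genes). The size of the difference was below that of the median gene for each of the 6 members in both comparisons, counted over the whole 5′ UTR. With only upstream 5′ UTR pieces, Atf5 was above the median gene, at 3.52 ± 0.21 against Chx and 4.76 ± 0.22 against WT (above 83.8% and 85.6% of genes). With no minimum of reads, so that genes with few or no reads entered, Ifrd1 lay above 53.8% of genes against Chx. The median over the members was 1.52 with Chx as reference and 1.70 with WT as reference, and over all genes it was 2.46 and 3.23.

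Among the members, Ifrd1 had the highest log2 odds ratio for Harr against Chx, 2.00 ± 0.11 (counting standard error), followed by Ddit3 (1.80 ± 0.18), Ppp1r15b (1.65 ± 0.15), Atf5 (1.40 ± 0.18), Atf4 (1.27 ± 0.08) and Ppp1r15a (1.13 ± 0.12). Neighbours in this order differed by less than the 95% counting interval of their difference. Against WT the order was Atf5 (2.10 ± 0.18), Ppp1r15b (1.91 ± 0.16), Atf4 (1.80 ± 0.08), Ddit3 (1.60 ± 0.19), Ppp1r15a (1.54 ± 0.13) and Ifrd1 (1.43 ± 0.12), again with no neighbours apart. Ifrd1 was thus the highest member in the comparison with Chx and the lowest in the comparison with WT, which share the Harr library.

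Since the members began with high 5′ UTR shares, they were set beside genes of like share, chosen on the library that the comparison did not use. Over 368 other genes with at least 100 5′ UTR plus CDS reads in WT and a WT share of 34.7% to 57.7%, the median log2 odds ratio of Harr against Chx was 1.99, with 0.90 and 3.21 as the 10th and 90th percentiles. All 6 members lay inside that range and 5 of them below the median. Over 403 genes with a Chx share of 41.3% to 69.0%, the median of Harr against WT was 2.45, and all 6 members lay below it and above the 10th percentile of 1.26. Over 1174 genes with a Harr share of 65.0% to 85.5%, the median of Chx against WT was 0.59, 5 members lay below it, and 4 lay between the 10th and 90th percentiles of -0.16 and 1.47. Ddit3 (-0.20) and Ifrd1 (-0.56) lay under that range.

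Between Chx and WT no member differed 2-fold in the 5′ UTR to CDS ratio, while 34.7% of 10429 genes were at least 2-fold higher in Chx and 1.85% at least 2-fold lower. The median over the members was 0.33 and over all genes 0.67, or 0.17 over all genes with no minimum of reads, so that which of them was higher rested on the minimum. Atf5 (0.71 ± 0.08), Atf4 (0.53 ± 0.05), Ppp1r15a (0.41 ± 0.11) and Ppp1r15b (0.26 ± 0.12) were higher in Chx. Ifrd1 was lower in Chx at -0.56 ± 0.08, a value below that of all but 5.33% of genes, and Ddit3 lay at -0.20 ± 0.14 with an interval that held 0. Per 1000000 aligned reads, Ifrd1 had fewer 5′ UTR reads in Chx than in WT (log2 ratio -0.32 ± 0.06) and more CDS reads (0.24 ± 0.05).

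**Figure D3:**
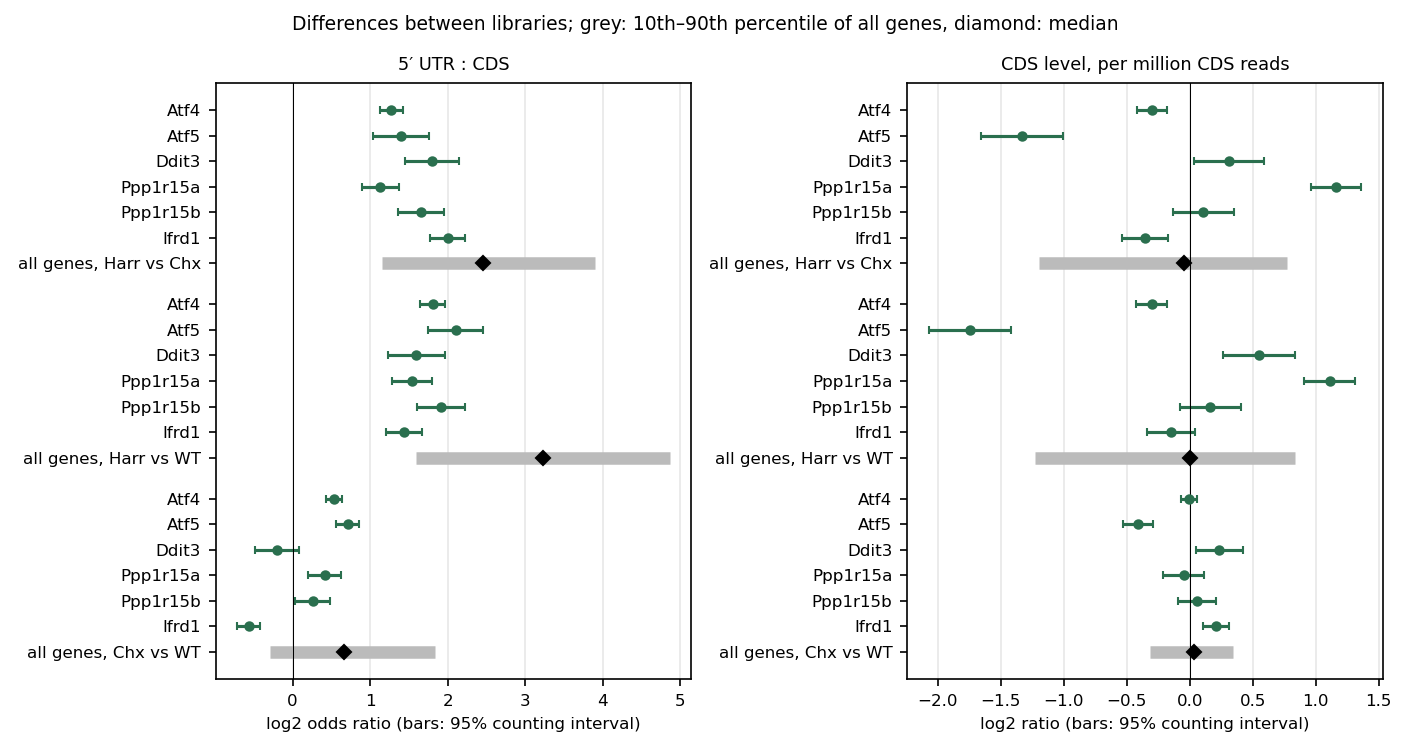
Each circle is the log2 odds ratio of 5′ UTR to CDS reads (left) or the log2 ratio of CDS level, scaled to 1000000 CDS reads (right) of 1 member in 1 pair of libraries, with its 95% counting interval, and grey bars with diamonds give the 10th to 90th percentile and the median of all genes. In both Harr comparisons on the left the 6 members sit left of the median diamond, and on the right, in the same comparisons, Atf5 lies below 0 and Ppp1r15a above it, which turns negative when reads are scaled to mitochondrially encoded ones.

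The tables give counts for each exon piece, which separates the 5′ UTR piece that touches the start codon from pieces upstream of it in Atf4, Atf5 and Ddit3. The 5′ UTRs of Ppp1r15b, Ifrd1 and the longest Ppp1r15a transcript are 1 piece each. That of Ifrd1 could be divided with the pieces of other Ifrd1 transcripts, and the others were not split.

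In Atf4 the upstream piece is exon 1, from 80255184 to 80255685, which holds the starts of all 3 uORFs, and the piece that touches the start codon is the 92 bases of exon 2 from 80256207 to 80256298, which hold the body of the 59-codon uORF. Exon 1 had 600 reads in WT, 1140 in Chx and 849 in Harr. The 92-base piece had 1301, 2181 and 368. Exon 1 thus took 31.6% of the 5′ UTR reads in WT (29.5 to 33.7), 34.3% in Chx (32.7 to 36.0) and 69.8% in Harr (67.1 to 72.3), so that WT and Chx were close and Harr stood apart.

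A second Atf4 transcript covers only parts of exon 1 and so divides it further. The last 118 bases, positions 385 to 502, which hold the start codons of the 3-codon and 59-codon uORFs printed above, had 533 reads in WT, 989 in Chx and 698 in Harr. Positions 102 to 384, which hold the 36-codon uORF, had 67, 151 and 150 reads in 283 bases, and positions 1 to 101 had 0, 0 and 1. The last 118 bases of exon 1 stood at 149 reads per kilobase per 1000000 aligned reads (RPKM) in WT, 235 in Chx and 606 in Harr. The 92 bases of exon 2 that follow stood at 468, 664 and 410 RPKM. In Harr the peak of density on Atf4 therefore lay over the uORF starts, and in WT and Chx it lay over the 92 bases before the CDS.

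In Atf5, too, exon 1 held a larger share of the 5′ UTR reads in Harr. Its upstream piece, exon 1 from 44816402 to 44816658, had 141 reads in WT, 304 in Chx and 258 in Harr, and the 116 bases that touch the CDS, from 44815167 to 44815282, had 1485, 2115 and 213. Exon 1 held 8.67% of the 5′ UTR reads in WT (7.40 to 10.1), 12.6% in Chx (11.3 to 13.9) and 54.8% in Harr (50.3 to 59.2). Almost all exon 1 reads lay in its last 173 bases, which hold both uORF starts, since the first 84 bases had 3, 0 and 2 reads. Those 173 bases stood at 26.4 RPKM in WT, 49.2 in Chx and 152 in Harr, and the 116 bases before the CDS at 424, 510 and 188. Unlike in Atf4, the piece before the CDS thus stayed the denser one in Harr. Per 1000000 aligned reads, the whole Atf5 5′ UTR was lower in Harr than in Chx (log2 ratio -0.49 ± 0.07), which was so for few genes, since 1.02% had a lower value and the median gene stood at 1.83.

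Ddit3 went the other way. Its 2 upstream exons had 268 reads in WT, 269 in Chx and 174 in Harr, and the 20 bases that touch the CDS had 48, 123 and 142. The upstream exons held 84.8% of the 5′ UTR reads in WT (80.4 to 88.3), 68.6% in Chx (63.9 to 73.0) and 55.1% in Harr (49.6 to 60.5), and the 3 intervals did not overlap.

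As a log2 odds ratio of upstream against start-touching reads, Harr against Chx gave 2.14 ± 0.10 for Atf4, 3.07 ± 0.16 for Atf5 and -0.83 ± 0.23 for Ddit3. The median over 2711 genes with both kinds of piece was -0.06, and 17.2% of them were at least 2-fold higher and 19.1% at least 2-fold lower. Atf4 lay above 96.1% and Atf5 above 98.7% of these genes. Among 288 genes in which an out-of-frame uORF runs from an upstream piece into the CDS, as in Atf4 and Atf5, the median was -0.07 and 22.6% were at least 2-fold higher. Against WT the values were 2.32 ± 0.11, 3.67 ± 0.18 and -2.18 ± 0.28, with a median of 0.45 over 2520 genes, 34.4% of which were at least 2-fold higher and 15.2% at least 2-fold lower. Between Chx and WT, Atf4 (0.18 ± 0.09) and Atf5 (0.60 ± 0.15) stayed under 2-fold, Ddit3 was 2-fold lower (-1.34 ± 0.27), and of 2538 genes 30.2% were at least 2-fold higher and 10.7% at least 2-fold lower.

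**Figure D4:**
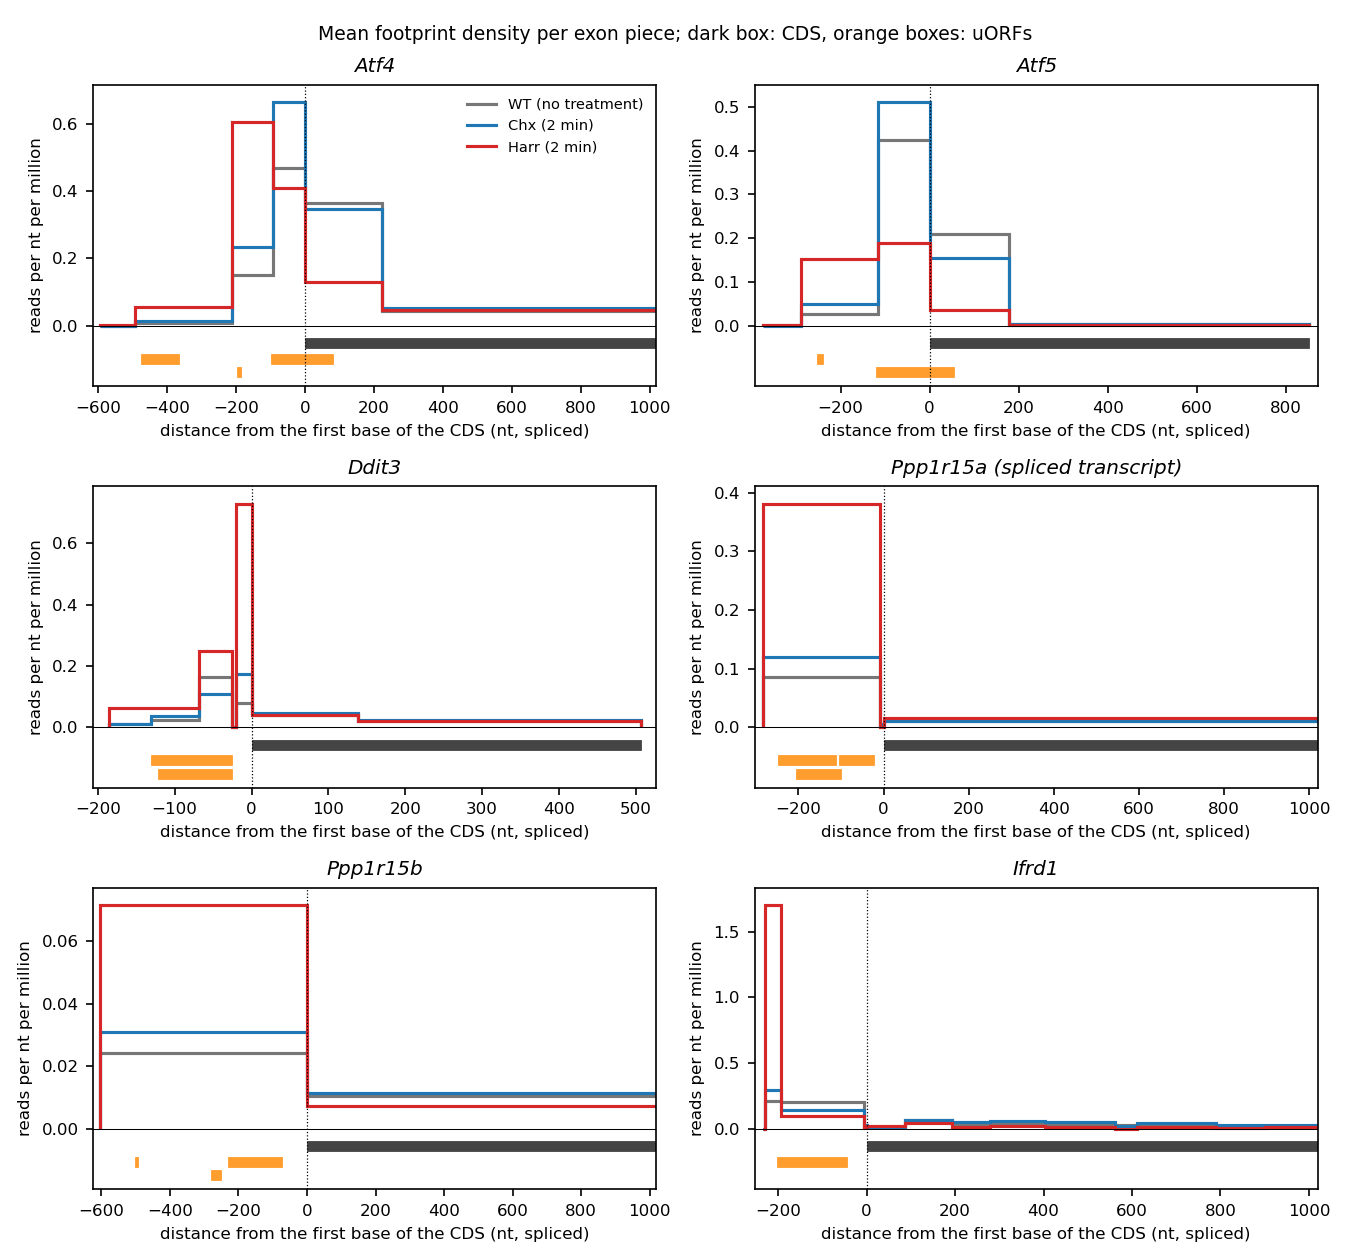
Mean reads per base per 1000000 aligned reads are drawn for each exon piece against the distance from the CDS start in the spliced mRNA, with the CDS as a dark box and uORFs as orange boxes, for the CDS up to its first 1000 bases. In Atf4 the Harr line peaks over the last piece of exon 1, before the WT and Chx lines, in Ddit3 it peaks in the 20 bases before the CDS, in Ifrd1 it peaks in the first 40 bases of the 5′ UTR, and in Ppp1r15b 1 piece covers the whole 5′ UTR.

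Reads within the Ddit3 uORF could be counted by themselves, since the annotation also lists it as a CDS of its own. With 5′-end counting, ribosomes on its ATG have their reads in the 55 bases before it, so the count of the uORF leaves out reads of ribosomes starting on it. Its 105 bases, from 127290829 to 127293753 across an intron, had 250 reads in WT, 248 in Chx and 140 in Harr. That was 79.1% of the 5′ UTR reads in WT (74.3 to 83.2), 63.3% in Chx (58.4 to 67.9) and 44.3% in Harr (38.9 to 49.8). Per base, the uORF was denser than the CDS by a factor of 3.09 in WT, 2.15 in Chx and 5.24 in Harr.

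Within the Ddit3 uORF most reads lay in exon 2, its last 42 bases, at 82.8% in WT (77.6 to 87.0), 66.1% in Chx (60.0 to 71.7) and 72.9% in Harr (65.0 to 79.5). The 63 bases of the uORF in exon 1, which hold both of its ATGs, had 43, 84 and 38 reads, and the 55 bases before it had 18, 21 and 34. Against the CDS, the log2 odds ratio of Harr to Chx was 1.29 ± 0.21 for the uORF, 2.79 ± 0.42 for the 55 bases before it and 2.32 ± 0.23 for the 20 bases that touch the main start codon. Of Harr to WT it was 0.76 ± 0.21, 2.50 ± 0.44 and 3.15 ± 0.28. In both comparisons the pieces just before the uORF and just before the CDS thus had higher values than the uORF itself, and their intervals overlapped each other. Of Chx to WT it was -0.52 ± 0.16 for the uORF and 0.84 ± 0.26 for the start-codon piece, in opposite directions, and the piece before the uORF (-0.30 ± 0.47) had an interval that held 0. The whole 5′ UTR shares of Ddit3, whose intervals overlapped in WT and Chx, therefore held a smaller share of reads within the uORF and a larger share in the start-codon piece in Chx.

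In Ifrd1 the 5′ UTR reads in Harr lay mostly at its 5′ end. Another transcript starts inside the 5′ UTR, so that its count, less that of the first CDS piece, gives the reads of positions 41 to 233, and the remainder are those of positions 1 to 40. This division was made after the data were seen and has no counterpart over all genes. The first 40 bases, from 40223150 to 40223189, hold the start codon of the 52-codon uORF printed above and had 231 reads in WT, 382 in Chx and 597 in Harr. The other 193 bases, from 40222957 to 40223149, had 1167, 940 and 173. The first 40 bases held 16.5% of the 5′ UTR reads in WT (14.7 to 18.6), 28.9% in Chx (26.5 to 31.4) and 77.5% in Harr (74.5 to 80.3), and these intervals did not overlap. They stood at 191 RPKM in WT, 267 in Chx and 1530 in Harr, and the other 193 bases at 200.1, 136 and 91.9.

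As a log2 odds ratio of the first 40 bases of Ifrd1 against the rest of its 5′ UTR, Harr gave 3.08 ± 0.15 with Chx as reference and 4.12 ± 0.16 with WT as reference, and Chx to WT gave 1.04 ± 0.14. Against the CDS, the first 40 bases stood at 3.42 ± 0.13 in Harr to Chx and 3.66 ± 0.15 in Harr to WT, and the rest of the 5′ UTR at 0.34 ± 0.15 and -0.46 ± 0.15. The 2-fold higher value of the whole Ifrd1 5′ UTR in Harr was thus that of its first 40 bases, while the rest was under 2-fold in both comparisons. The lower value in Chx than in WT lay in the rest of the 5′ UTR (-0.80 ± 0.08), and the first 40 bases (0.24 ± 0.13) had an interval that held 0. With 5′-end counting, reads of ribosomes on the main start codon fall in the rest of the 5′ UTR, beside those from the body of the uORF, and these were not separated. The gene Gm7008 lies on the opposite strand, and its part in these reads was not tested.

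In the spliced Ppp1r15a transcript the piece that touches the start codon is 9 bases long and had 2 reads in Chx and 0 in the others, and exon 1 had 712 reads in WT, 1171 in Chx and 1018 in Harr. With 5′-end counting, a ribosome on that start codon has its read in exon 1, so the split says nothing about uORFs in this gene. On the spliced transcript the 5′ UTR:CDS log2 odds ratio of Harr was 1.06 ± 0.12 with Chx as reference and 1.55 ± 0.13 with WT as reference, and that of Chx to WT was 0.49 ± 0.11.

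The CDS reads were also unevenly spread. In Atf5 the first CDS piece, 178 bases, which includes the 56 bases that overlap the 58-codon uORF, had 1133 of 1192 CDS reads in WT, 988 of 1086 in Chx and 61 of 80 in Harr. The remaining 674 bases of the CDS had 59, 98 and 19 reads. Per base the first piece was denser by a factor of 72.7 in WT, 38.2 in Chx and 12.2 in Harr, while the median over all genes was 1.44, 1.71 and 2.31. In WT and Chx the factor of Atf5 was above that of 99.99% of 7933 and 8485 genes. Past the first piece the Atf5 CDS stood at 2.90 RPKM in WT, 4.07 in Chx and 2.89 in Harr, the lowest of the members there in each library.

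Atf4 had 2458 of 3578 CDS reads in its first CDS piece in WT, 2774 of 4323 in Chx and 282 of 656 in Harr. That piece is 223 bases long, 83 of which overlap the 59-codon uORF, and per base it was denser than the rest by a factor of 8.14 in WT, 6.64 in Chx and 2.80 in Harr. The factor exceeded that of 99.3% of genes in WT, 98.3% in Chx and 57.2% in Harr. The later 827 bases stood at 44.8 RPKM in WT, 52.4 in Chx and 46.4 in Harr. The exon that holds the body of the long uORF and the start of the CDS took 68.6% of all 5′ UTR and CDS reads of Atf4 in WT, 64.8% in Chx and 34.7% in Harr, and 92.9%, 88.5% and 49.7% of those of Atf5.

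Of the other members, Ddit3 had a factor of 2.06 in WT, 1.83 in Chx and 1.86 in Harr, and Ppp1r15a of 1.36, 1.20 and 1.13. Ppp1r15b had 1.04 and 1.51 in WT and Chx and 0.485 in Harr. The first CDS piece spans 1644 bases in Ppp1r15a and 1869 in Ppp1r15b, and 330 and 225 bases follow it. Those had 75, 98 and 43 reads in WT, Chx and Harr in Ppp1r15a, and 68, 61 and 33 in Ppp1r15b. In Ifrd1 the first CDS piece, 88 bases, was less dense than the rest (0.380, 0.270 and 0.850), with 34, 34 and 15 reads. As a log2 odds ratio of first against later CDS pieces, Harr against Chx gave -1.25 ± 0.12 for Atf4, -1.67 ± 0.40 for Atf5, -1.65 ± 0.34 for Ppp1r15b and 1.68 ± 0.45 for Ifrd1. Over 8793 genes the median was 0.30, with 32.8% at least 2-fold higher and 17.9% at least 2-fold lower. Against WT, Atf4 (-1.54 ± 0.13), Atf5 (-2.59 ± 0.42) and Ppp1r15b (-1.11 ± 0.33) were again lower and Ifrd1 higher (1.18 ± 0.45), where 40.8% of 8478 genes were at least 2-fold higher and 15.4% at least 2-fold lower. Between Chx and WT no member passed 2-fold, and 14.1% and 2.37% of 9106 genes did, higher and lower.

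Where the first CDS piece was left out of the CDS count, a choice made after seeing these values, the 5′ UTR to CDS log2 odds ratio of Harr against Chx became -0.02 ± 0.36 for Atf5, 0.22 ± 0.32 for Ppp1r15b and 0.60 ± 0.10 for Atf4, and 3 members stayed at least 2-fold higher. With that count the median over all genes was 2.52, and 91.1% of genes were at least 2-fold higher.

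**Figure D5:**
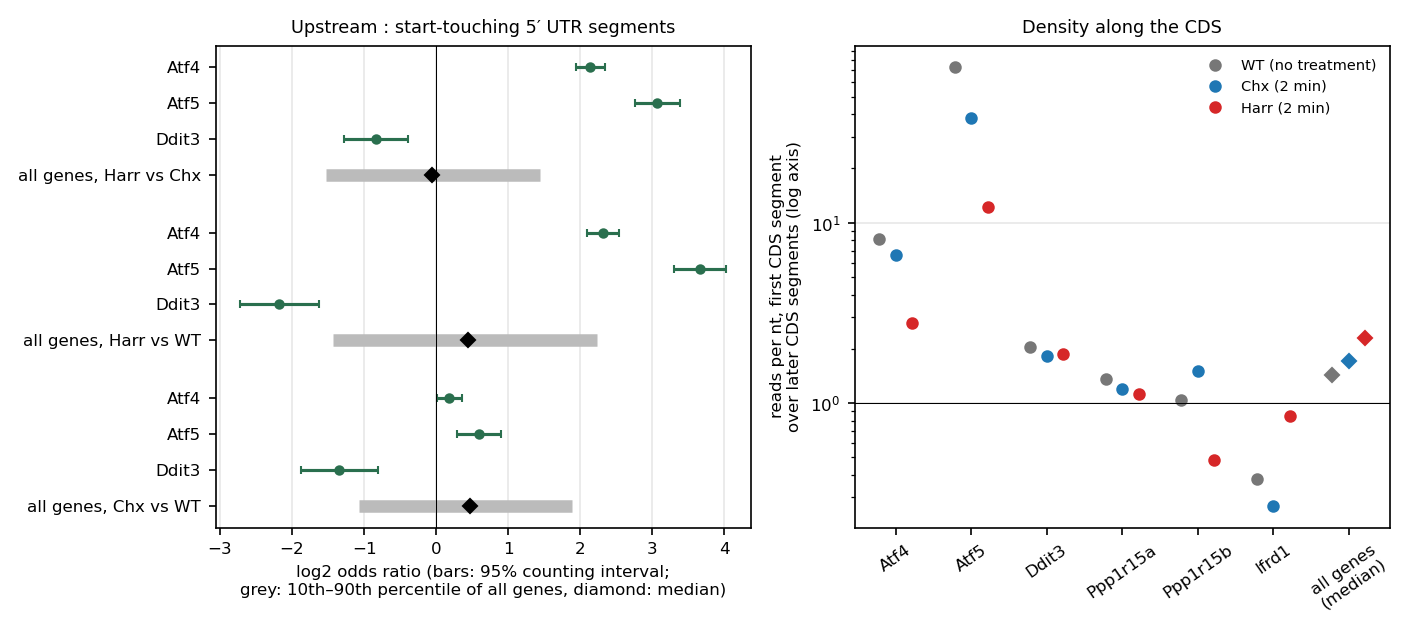
The left panel shows the log2 odds ratio of upstream against start-touching 5′ UTR reads for the 3 members whose longest transcript has more than 1 5′ UTR piece, with 95% counting intervals and the 10th to 90th percentile and median of all genes, and the right panel shows the density of the first CDS piece over the later ones on a log axis. Atf4 and Atf5 lie right of the grey bar in the Harr comparisons and Ddit3 left of 0, and Atf5 reaches 72.7 in WT on the right.

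In CDS level per length, Atf4 was the highest member in every library, with 113 RPKM in WT (exact Poisson 95% interval 109 to 117), 115 in Chx (112 to 119) and 64.0 in Harr (59.2 to 69.1). In WT it was followed by Atf5 (46.3, but 2.90 and the lowest of the members past its first CDS piece), Ifrd1 (32.3), Ddit3 (25.5), Ppp1r15b (10.4) and Ppp1r15a (9.79), and the intervals of the last pair overlapped. Past its own first CDS piece Atf4 stood at 44.8 in WT, 52.4 in Chx and 46.4 in Harr. In Chx Ifrd1 (38.2) and Atf5 (35.7) were not apart over the whole CDS, but past the first CDS piece they stood at 40.1 and 4.07. Ppp1r15b (11.1) and Ppp1r15a (9.70) were not apart in Chx either. In Harr the order was Ddit3 (26.1) and Ifrd1 (20.4), not apart, then Ppp1r15a (14.8), and then Atf5 (9.63) and Ppp1r15b (8.13), not apart. The median over genes with at least 10 CDS reads was 9.13 in WT, 9.50 in Chx and 8.28 in Harr.

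For differences in CDS level, reads were scaled to 1000000 CDS reads, with 0.5 added to each count. In Harr against Chx, Ppp1r15a was the member that was 2-fold higher (1.16 ± 0.10, above 97.6% of genes), as were 4.63% of 11459 genes, and Atf5 was the member that was 2-fold lower (-1.33 ± 0.17), as were 14.1%. Atf4 (-0.30 ± 0.06) and Ifrd1 (-0.36 ± 0.09) were lower, Ddit3 (0.31 ± 0.14) was higher, and Ppp1r15b (0.11 ± 0.12) had an interval that held 0. Against WT, Ppp1r15a was again 2-fold higher (1.11 ± 0.10, 5.3% of genes) and Atf5 2-fold lower (-1.75 ± 0.17, 14.7% of genes), and Ddit3 stood at 0.55 ± 0.15. Scaled to all aligned reads, the median over all genes for Harr against Chx moved from -0.05 to -0.60, Ppp1r15a stood at 0.61 ± 0.10, no longer 2-fold, and Ddit3 (-0.24 ± 0.14) and Ppp1r15b (-0.44 ± 0.12) turned negative. Scaled to mitochondrially encoded CDS reads, the median was -1.43 and Ppp1r15a too turned negative (-0.22 ± 0.10), so its CDS level was higher relative to other genes and not on every scale. Past the first CDS piece, an alternative chosen after seeing the data, Atf5 stood at 0.08 ± 0.36 against Chx and 0.53 ± 0.38 against WT and was no longer lower, and Atf4 turned to 0.37 ± 0.08 and 0.56 ± 0.09. Ppp1r15a (1.24 ± 0.26 and 1.35 ± 0.27) stayed 2-fold higher there and Ppp1r15b (1.54 ± 0.31 and 1.11 ± 0.30) was so too, where 6.53% and 6.94% of 10188 genes were. For Ppp1r15a and Ppp1r15b these values rest on the last 330 and 225 bases, with 43 and 33 reads in Harr, and leave out most of the CDS. The medians over the members in the whole CDS, -0.10 against Chx and 0.01 against WT, were close to those over all genes (-0.05 and 0.00).

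Between Chx and WT no member differed 2-fold in CDS level, and of all genes 0.201% were at least 2-fold higher in Chx and 0.122% at least 2-fold lower. Atf5 was lower in Chx (-0.41 ± 0.06, with 5.33% of genes below it) but stood at 0.45 ± 0.24 past its first CDS piece, Ddit3 (0.23 ± 0.10) and Ifrd1 (0.21 ± 0.05) were higher, and Atf4 (-0.0048 ± 0.03), Ppp1r15a (-0.05 ± 0.08) and Ppp1r15b (0.06 ± 0.08) had intervals that held 0.

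Beyond the members, 22 genes were read from 4 lists, which do not form a single pathway: the kinases of eIF2, the subunits of eIF2 and of its exchange factor eIF2B, the catalytic subunits of protein phosphatase 1, and other genes known for uORFs under stress. Of these, 21 had enough reads, and 20 were at least 2-fold higher in the 5′ UTR to CDS ratio in Harr than in Chx and none lower, with a median of 2.49, beside 92.1% of all genes and their median of 2.46. By list, the medians were 3.27 for 3 measured kinases, 2.56 for 8 subunits of eIF2 and eIF2B, 3.39 for 3 phosphatase subunits and 2.21 for the 7 other uORF genes. In Harr against WT all 21 were 2-fold higher, with a median of 3.51, beside 96% and 3.23 over all genes. In Chx against WT 9 were higher and 1 lower, with a median of 0.72, beside 34.7%, 1.85% and 0.67. In CDS level, 21 genes passed the minimum, 0 were 2-fold higher and 1 was 2-fold lower in Harr than in Chx (4.63% and 14.1% of all genes), 1 and 1 in Harr against WT (5.3% and 14.7%), and none between Chx and WT (0.201% and 0.122%).

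Eif2ak3 (PERK), the eIF2 kinase of the endoplasmic reticulum, had the lowest log2 odds ratio of Harr against Chx among them (0.99 ± 0.29) and the highest CDS ratio (0.99 ± 0.12). Eif2ak2 (PKR), the kinase activated by double-stranded RNA, had the highest odds ratio (5.03 ± 1.16) and the lowest CDS ratio (-1.69 ± 0.79), from 3 CDS reads in Harr. Between Chx and WT, Eif2s2, the β subunit of eIF2, had the lowest CDS ratio (-0.38 ± 0.04) and Cebpa, a bZIP factor with a uORF, the highest (0.58 ± 0.42). Cebpa had 33 CDS reads in Chx and 18 in WT and failed the minimum used for CDS level, and of the 21 genes that passed it Atf3, a stress-induced bZIP factor, had the highest ratio (0.57 ± 0.13). In each library the 7 other uORF genes had 5′ UTR shares below that of every member, at most 22.6% in WT, 34.0% in Chx and 58.3% in Harr. The highest in Chx and in Harr was Cebpa, with 17 reads in the 5′ UTR and 33 in the CDS in Chx. In Harr it had 7 and 5, too few to place it below the members.

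By the distance between genes in the log2 5′ UTR to CDS read ratio over the 3 libraries, among 8007 genes with at least 50 5′ UTR and 200 CDS reads, the nearest to Atf4 were Clmp (0.18), Zfp942 (0.18) and Lrrc28 (0.20). Those nearest to Atf5 were Zfp426 (0.14), Akr1a1 (0.36) and Nkain2 (0.40), and to Ddit3 Crls1 (0.08), Adcy8 (0.10) and Nlgn2 (0.16). Nearest to Ppp1r15a were Exo5 (0.10), Limk2 (0.20) and Ppp1r16a (0.26), to Ppp1r15b Zbed6 (0.15), Tle3 (0.17) and Slmap (0.17), and to Ifrd1 Sema4g (0.08), Tmem246 (0.13) and Zfp61 (0.16). No member was among the 3 nearest of another.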

How the data were processed

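Per the file headers, the authors took mm10 alignments from which ribosomal reads and duplicates had been removed and used Plastid to count reads of 25 to 100 nucleotides at the 5′ end (offset 0) in each exon segment of each transcript. The study's methods name Rsubread with Plastid for its other footprint libraries and Bowtie with TopHat for the search for reading frames in these libraries. Which of these alignments the tables rest on is not given in the sources used here. Removal of duplicates lowers the count where many reads share a position. The deposited counts are whole and unnormalized. The deposited coverage signal is the count per nucleotide, and the deposited RPKM further scales it to 1000 bases and 1000000 aligned reads. Only counts were used, and RPKM was recomputed from them. Transcripts were named with GENCODE M21 (99.1% of 142446 identifiers matched with their version, 99.4% without). A gene entered a 5′ UTR:CDS ratio from 10 reads per region, summed over the pair of libraries, and CDS level from 100 CDS reads summed over 3 libraries. A member was counted at 2-fold or more. Groups came from the treatment labels, since the sample descriptions name fractions of another experiment. The log2 ratios were tested on simulated Poisson counts with known changes and no variation between libraries. That test checks the computation only and cannot show whether the counting intervals fit these data. Alternatives were other transcripts, scalings, added counts, minimums and segments. Named genes were the 6 members, the extremes of the fixed lists and the 3 nearest genes by ratio. The members and lists were chosen with earlier results of these data known. Antisense genes overlap the 5′ UTRs of Atf5 and Ddit3 and the 5′ UTRs and CDSs of Ppp1r15b and Ifrd1, and use of strand in counting is not stated. Counts were computed with Python 3.11.15, pandas 2.3.3 and SciPy 1.17.1.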

Additional observations from a re-analysis of the deposited data

Results flagged for a closer look

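Reads in the 3′ UTR, which entered no comparison, were above the level of the untreated library for Ddit3 in Harr, at 2.77 reads per 1000000 aligned reads (27 reads, exact Poisson 95% interval 1.82 to 4.03) against 1.09 in WT (33 reads, 0.752 to 1.53) and 0.756 in Chx (27 reads). The 3′ UTR reads of all genes were higher in Harr on this scale as well, at 25453 per 1000000 aligned reads against 13109 in WT and 10781 in Chx. Those of Atf4 (0.308, 0.165 and 0.0280) and Ifrd1 (0.410, 0.165 and 0.0280) were in the same order from few reads. Those of Ppp1r15b were close in Harr and WT (0.615 and 0.596, and 0.364 in Chx). Atf5 was highest in Chx (0.140, against 0.103 in Harr and 0.0331 in WT), and Ppp1r15a had 0 reads in every library. Per base, the Ddit3 3′ UTR stood at 0.539 of the CDS in Harr, 0.217 in WT and 0.125 in Chx, and in every library that was more than for any other member. The gene Mars lies on the opposite strand across the Ddit3 3′ UTR, and its part in these reads was not tested.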

How the results depend on the processing

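Of 135 values under alternative settings, 107 stayed within the counting interval or within 1.5 times the count, and 28 did not. This tally does not measure robustness, since some values could not change and some changed with the number of members. All members passed the minimum of reads, so their values without it were the same by construction. Their principal transcripts gave the same 5′ UTR:CDS ratios, and counts with only upstream 5′ UTR segments had 3 members to draw on. These are medians and counts over the members. Among single members, the CDS log2 ratio of Ppp1r15a, 2-fold higher in Harr as reported, was -0.22 against Chx and -0.20 against WT when scaled to mitochondrially encoded CDS reads. With only upstream 5′ UTR segments, which 3 members have, the median 5′ UTR:CDS log2 odds ratio of Harr was 2.29 with Chx as reference (3 members 2-fold higher, beside 90.6% of genes) and 2.95 with WT as reference (2, beside 93.8%), and that of Chx to WT was 0.65 (1, Atf5, beside 35.5%). Over all genes it was then 2.39, 3.13 and 0.68, so that the distance of the members from all genes was -0.09, -0.18 and -0.02, where with whole 5′ UTRs the members lay further below. With only CDS segments after the first, added after the data were seen, the members' median was 0.82 (3, beside 91.1% of genes), 1.13 (3, beside 95.4%) and 0.051. Their median CDS log2 ratio was 0.34, 0.59 and 0.20, with 2 members 2-fold higher and 0 lower in each Harr comparison. Of all genes, 6.53% and 6.94% were then 2-fold higher in CDS level in Harr, and 21.2% and 22.4% lower. With no minimum of reads, the members' median 5′ UTR:CDS log2 odds ratio for Chx against WT was above that of all genes (0.33 and 0.17) and not below it. Scaled to header totals, the median CDS log2 ratio was -0.64 for Harr against Chx and -0.51 for Harr against WT, with 0 members 2-fold higher and 1 lower in each. Of all genes, 0.559% and 0.681% were 2-fold higher on that scale, and 31.4% and 29.1% lower. Scaled to mitochondrially encoded CDS reads, the members' median was -1.48 and -1.31, with 0 members higher and 5 and 4 lower. Of all genes, 73.0% and 65.8% were 2-fold lower on that scale. The median of all genes moved likewise to -1.43 and -1.31, so that the members kept their distance from it. Both scalings act by construction on all genes alike. Without genes whose UTRs overlap a CDS, Ddit3 dropped out. No paired analysis was possible because there is 1 library per treatment, and no library could be left out. Depth limits the Harr counts of Atf5, with 80 CDS reads, 19 of them past the first segment, and of the first CDS segment of Ifrd1, with 15. It also limits those past the first CDS segment of Ppp1r15a, with 43, and of Ppp1r15b, with 33.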
